A study of Mus musculus with 8 samples.

Results

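The bulk RNA-seq library of cluster 3, a sorted population of mouse bone marrow stromal cells, was compared with the libraries of clusters 1, 4 and 7, which the study placed with it in one group by open chromatin. These were 4 of the 8 libraries of the series, with 1 library for each population. Since none had a replicate, differences are given without p-values. A gene was taken as above or below when its log2(RPKM + 1) in cluster 3 lay above, or below, that of clusters 1, 4 and 7 alike. RPKM, read density per exon length and library size, was scaled by TMM factors, which correct for differences in library composition. Genes with at least 50 counts in the higher side were used, which meant cluster 3 for genes above and each of the other 3 libraries for genes below. This left 13190 of the 49315 genes counted. A difference of more than 2-fold in RPKM + 1 to the nearest of the 3 libraries was the call.

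All libraries were labelled as stromal cells from the bone marrow of wild type C57BL/6J mice at 6 weeks after birth. The label names only the cluster number, and the populations were separated by fluorescence-activated cell sorting (FACS). All gates excluded CD31, CD45 and Ter119, the surface antigens of endothelial, haematopoietic and erythroid cells. The populations were told apart by combinations of CD24, CD39, CD54, Sca-1 and Ly-6C, and the combination that defined each one is not used here. The number of mice pooled in a library was not given in the sources used here. The library of cluster 3 held 27102715 counts, those of clusters 1, 4 and 7 held 24205863, 32549319 and 33238133, and the sorted libraries of the series ranged from 12833648 to 33238133.

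Bone marrow stroma contains both the cells that build bone and the cells that support blood formation. Osteoblasts arise under the transcription factors Runx2 and Sp7, secrete type I collagen and, as they mature, osteocalcin, and become osteocytes when the mineralising matrix encloses them. Perivascular stromal cells instead secrete Cxcl12 and Kitl, which hold and maintain haematopoietic stem cells, and can enter the adipocyte lineage. Fibroblast-like cells with Sca-1 on their surface form a further compartment.

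On the scale of log2(RPKM + 1), the largest differences of cluster 3 to clusters 1, 4 and 7 were in Bglap and Bglap2. These genes encode osteocalcin, the calcium-binding protein of bone matrix. Other genes of the osteoblast lineage were above, within the range or below. Of the 12788 genes with at least 50 counts in cluster 3, 3889 (30.4%) were above all 3 libraries by any amount and 215 (1.68%) by more than 2-fold. Of the 12397 genes with at least 50 counts in clusters 1, 4 and 7, 3519 (28.4%) were below by any amount and 202 (1.63%) by more than 2-fold. The difference was more than 4-fold for 43 genes above and 29 genes below, and more than 8-fold for 13 and 5. The median difference of cluster 3 to the mean of the 3 libraries was 0.02 on the log2 scale over all genes tested. Scaling by the total count instead of TMM gave 181 genes above and 276 below, so that 39.6% instead of 51.6% of the called genes were above. Without the library of cluster 1, 316 genes were above and 443 below, and for 135 of the 202 genes below cluster 1 was the nearest library.

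Just inside the 2-fold limit were Cracdl (log2 difference to the nearest library 1.01) and Ppbp (1.01) above, and Nrp1 (1.005) and Col4a5 (1.01) below. Just outside it were Hipk2 (0.994) and Mgst3 (0.989) above, and Col6a5 (0.9999) and Prr5 (0.997) below. By pairs of libraries, cluster 3 was more than 2-fold higher than cluster 1 for 414 genes and lower for 342. It was higher than cluster 4 for 461 and lower for 742, and higher than cluster 7 for 596 and lower for 888. Pearson's r of log2(RPKM + 1) with cluster 3, across genes, which are not independent replicates, was 0.956 for cluster 1, 0.937 for cluster 4 and 0.928 for cluster 7.

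**Figure D1:**
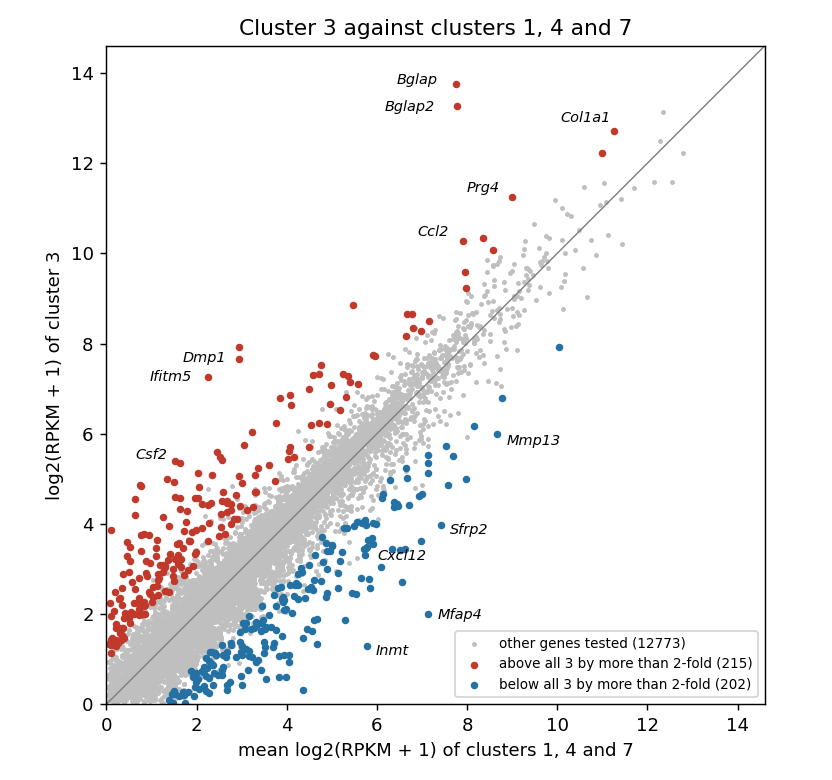
Log2(RPKM + 1) of each tested gene in cluster 3 (y axis) against its mean in clusters 1, 4 and 7 (x axis), with the line of equality. The 215 genes above all 3 libraries by more than 2-fold are red, with Bglap and Bglap2 farthest from the line, and the 202 genes below are blue, with Inmt and Mfap4 farthest.

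Bglap (ENSMUSG00000074483, chr3:88383501-88384464 of GRCm38, minus strand) encodes osteocalcin and had an RPKM of 13802 in cluster 3 against 212, 186 and 248 in clusters 1, 4 and 7. The 3 other libraries lay close together, and cluster 3 was 55.8-fold above the nearest of them (95% interval of the count ratio 54.3 to 57.3). Intervals of count ratios are exact binomial ones and cover counting error only, not the variation between sorts or mice. Bglap2 (chr3:88377736-88378699), the neighbouring osteocalcin gene, had an RPKM of 9793 in cluster 3 against 167, 189 and 331 in clusters 1, 4 and 7, a ratio of 29.5 (28.8 to 30.3) to cluster 7. Bglap3 (chr3:88368616-88372743), the remaining member of this row of genes, had 17.4 against 0.275, 0.274 and 1.29. How far the sequences of the 3 genes are alike was not measured here. The rule for reads shared between them was not given in the sources used here, so the division of reads among them is uncertain. Their summed share of all counts does not depend on that division, although it would change if shared reads were dropped or counted repeatedly. It was 1.34% in cluster 3 (95% Wilson interval 1.34% to 1.34%), against 0.0252%, 0.0210% and 0.0348% in clusters 1, 4 and 7.

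Ifitm5 (ENSMUSG00000025489, chr7:140948958-140950291), a membrane protein of mineralising osteoblasts, had an RPKM of 152 in cluster 3 against 2.48, 4.24 and 5.01 in clusters 1, 4 and 7. Dmp1 (ENSMUSG00000029307, chr5:104202613-104214102), a phosphoprotein that nucleates mineral and is made by late osteoblasts and osteocytes, had 200 against 2.93, 9.72 and 9.60. In cluster 3 these genes were 30.4-fold (25.7 to 36.2) and 20.6-fold (19.2 to 22.0) above the nearest library. Car3, a cytosolic carbonic anhydrase, had 241 against 5.41, 8.85 and 6.14. The other genes among the 10 with the largest difference above were Lipc, a hepatic lipase, Ccdc194, Entpd3, an ectonucleotidase, Csf2, the cytokine GM-CSF, and Slc36a2, an amino acid transporter. In cluster 3 the RPKM of these 5 genes lay between 22.5 (Ccdc194) and 40.8 (Slc36a2), and in the other 3 libraries it did not exceed 3.08.

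Promoter sequences were inspected for the osteoblast genes that led the comparison, because RUNX factors bind AACCACA and its core ACCACA in promoters of bone genes. The 250 bases before the RefSeq start (GRCm38.p6), written 5′ to 3′ on the strand of the gene, are given for 3 of the 5 genes with the largest difference, with ACCACA in capitals.
Bglap: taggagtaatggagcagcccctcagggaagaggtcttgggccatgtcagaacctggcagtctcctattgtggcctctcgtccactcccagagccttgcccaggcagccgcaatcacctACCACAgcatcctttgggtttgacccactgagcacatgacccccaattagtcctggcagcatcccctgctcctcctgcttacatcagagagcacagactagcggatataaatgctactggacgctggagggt
Dmp1: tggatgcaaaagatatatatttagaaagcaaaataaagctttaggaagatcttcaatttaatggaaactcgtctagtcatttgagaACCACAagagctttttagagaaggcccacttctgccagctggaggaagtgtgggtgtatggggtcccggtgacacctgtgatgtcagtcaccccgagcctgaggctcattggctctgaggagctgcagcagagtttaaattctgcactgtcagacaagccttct
Ifitm5: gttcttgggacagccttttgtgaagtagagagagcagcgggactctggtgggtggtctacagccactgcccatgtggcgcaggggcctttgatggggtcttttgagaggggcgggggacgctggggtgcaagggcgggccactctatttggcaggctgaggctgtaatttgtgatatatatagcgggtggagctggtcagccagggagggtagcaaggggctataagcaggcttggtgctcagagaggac
The sequences lie at chr3:88384467-88384716 on the minus strand for Bglap, chr5:104202367-104202616 on the plus strand for Dmp1 and chr7:140950244-140950493 on the minus strand for Ifitm5. The match began 132 bases before the start in Bglap and 164 bases before it in Dmp1, and the Ifitm5 window held no match on either strand. Over all called genes with a matched promoter, ACCACA or its reverse complement TGTGGT was found in 14 of 154 genes above (9.09%) and 15 of 136 below (11.0%), against 1023 of 9951 genes tested (10.3%). The longer AACCACA (reverse complement TGTGGTT), which contains the core, was found in 3 genes above (1.95%), 4 below (2.94%) and 302 of all tested (3.03%). The shares of the called genes were thus near that of all genes.

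Genes of the osteoblast lineage differed among themselves. Over all genes tested, 1.68% were above and 1.63% below by more than 2-fold, and 30.4% and 28.4% by any amount, and the counts of each list stand beside these shares. Among 12 transcription factors of the osteoblast lineage, 11 had enough counts and 4 were above all 3 libraries by more than 2-fold, while Dlx6 was below the count minimum. By any amount 6 of the 11 were above and 0 below. Sp7, which acts after Runx2 in osteoblast commitment, had an RPKM of 20.5 in cluster 3 against 1.90, 3.31 and 7.56 in clusters 1, 4 and 7. Dlx3 and Msx2, homeobox factors, had 19.2 against 2.64, 1.54 and 2.22, and 1.65 against 0.0841, 0.265 and 0.157. Sp7, Dlx3 and Msx2 were lower in each of the other 3 libraries, although Sp7 in cluster 7 came within 2.71-fold of cluster 3 (2.49 to 2.96). Runx2, the master factor of the lineage, had 4.30 in cluster 3 and 1.71, 5.59 and 4.51 in the others, so that cluster 3 lay within their range. Dlx5 (6.12 against 1.07, 6.72 and 6.76) also lay within the range, and Runx2 and Dlx5 are named here after their values were seen. Of the most abundant members, Atf4 had 258 against 291, 367 and 216. The median difference of the 11 factors to the mean of the 3 libraries was 0.51 on the log2 scale, and 0.37 over all 12, beside 0.02 over all genes.

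Of 26 genes of bone matrix and mineralisation, all with enough counts, 9 were above by more than 2-fold and 2 below, with a median difference of 0.85. By any amount 16 were above and 4 below. Besides the osteocalcin genes and Ifitm5, the members above were Col1a1, Col1a2, Smpd3, Cthrc1 and Fkbp11. Col1a1 and Col1a2 encode the chains of type I collagen, the main protein of bone. Col1a1 had an RPKM of 6703 in cluster 3 against 3320, 1917 and 2330 in clusters 1, 4 and 7, and Col1a2 had 4772 against 2245, 1952 and 1900. Together they held 10.5% of the counts of cluster 3, and 5.95%, 3.77% and 4.33% of the others. Both ratios to the nearest library, 2.02 (2.01 to 2.03) and 2.13 (2.12 to 2.13), were close to the 2-fold limit. With total count scaling they fell to 1.71-fold and 1.80-fold in RPKM + 1, which ended both calls and left 7 members above, and with DESeq2 size factors or TMM factors of the 4 libraries Col1a1 was at 1.98-fold or 1.94-fold. Smpd3, a sphingomyelinase needed for mineralisation, had 52.7 against 6.65, 11.7 and 4.98. Cthrc1, a secreted protein of bone and vessel walls, had 210 against 41.7, 60.5 and 90.7.

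In contrast, 6 genes of the same list lay within the range of the other libraries. Of these, Alpl, the alkaline phosphatase that releases phosphate for mineral, had an RPKM of 83.9 in cluster 3 and 22.1, 78.8 and 89.3 in clusters 1, 4 and 7. Spp1 (osteopontin) had 1233 against 162, 1283 and 1166, and Ibsp (bone sialoprotein) had 439 against 164, 661 and 665. For these 3 genes, named after their values were seen, clusters 4 and 7 lay near or above cluster 3 and only cluster 1 was far lower. Sparc, the collagen-binding protein osteonectin, had 9005 against 3792, 8783 and 4166 and was above all 3, though close to cluster 4. The genes below were Mmp13, a collagenase of bone and cartilage, with 62.8 against 283, 327 and 719, and Tnfsf11 (RANKL), the cytokine that drives osteoclast formation, with 1.25 against 4.10, 8.58 and 13.7. The decoy receptor of RANKL, Tnfrsf11b (osteoprotegerin), had 72.2 against 11.5, 45.4 and 21.9, which was above all 3 but by less than 2-fold.

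The plot of osteoblast and stromal genes by library shows these levels side by side. Of 8 osteocyte genes, 5 had enough counts and Dmp1 and Phex, a peptidase of phosphate control, were above by more than 2-fold. Phex had an RPKM of 4.44 against 0.329, 1.58 and 1.19. Mepe, Sost and Fgf23, which are made by embedded osteocytes, were under the count minimum, and Sost had 0.0176 in cluster 3. The median difference was 1.03 over the 5 genes with enough counts and 0.32 over all 8.

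**Figure D2:**
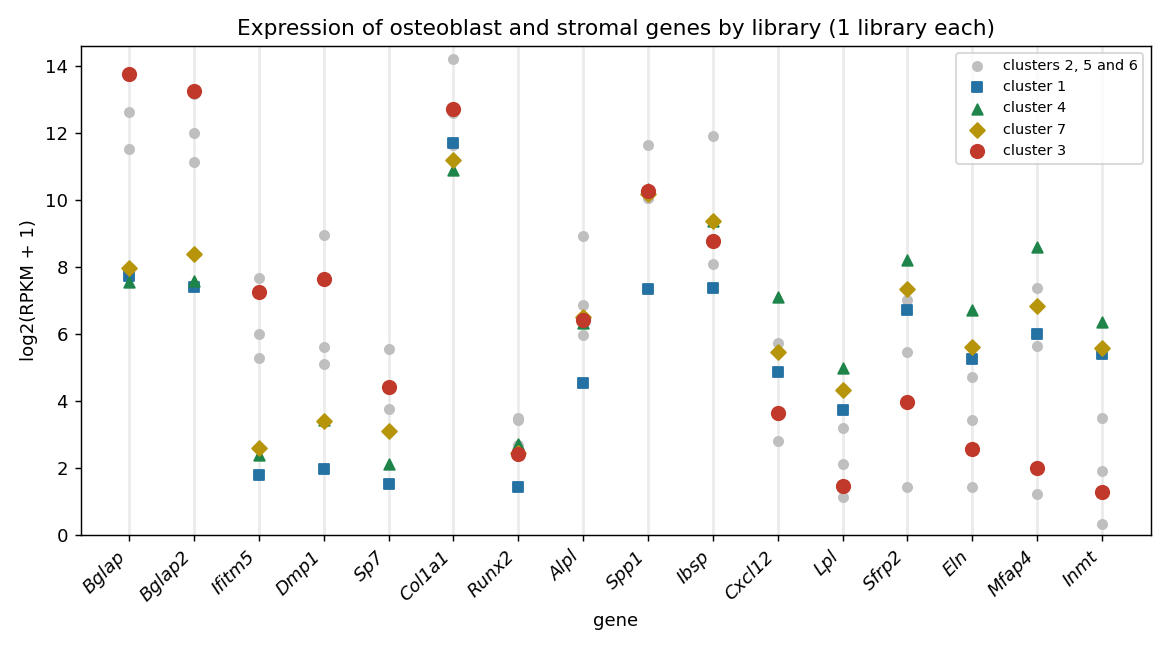
Log2(RPKM + 1) of 16 genes in cluster 3 (red circles), clusters 1, 4 and 7 (blue squares, green triangles, yellow diamonds) and clusters 2, 5 and 6 (grey), with 1 library each. From Bglap to Col1a1 cluster 3 lies above clusters 1, 4 and 7, from Runx2 to Ibsp it lies within their range, and from Cxcl12 to Inmt it lies below them.

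Among the genes with the largest difference below, Inmt (ENSMUSG00000003477, chr6:55170626-55175043), a methyltransferase of small amines, had an RPKM of 1.43 in cluster 3 against 41.0, 80.7 and 47.3 in clusters 1, 4 and 7, a ratio of 28.7 (22.3 to 37.5) to the nearest. Mfap4 (chr11:61485431-61488900), a protein of elastic fibres, had 2.99 against 62.8, 384 and 112. Eln, elastin itself, had 4.93 against 37.2, 104 and 47.5. All 3 libraries were thus several-fold above cluster 3 in these genes, and cluster 4 was the highest for each. Gdf10, a BMP-family ligand, had 5.55 against 54.6, 136 and 107. C7, a complement component, had 0.241 against 9.36, 24.0 and 32.6. The others were Ms4a4d, Ccl11 (eotaxin), Sfrp2, Sult1e1, an oestrogen sulphotransferase, and Steap4, a metalloreductase, with ratios to the nearest library between 7.09 (Sfrp2) and 23.4 (Ms4a4d).

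Cxcl12, the chemokine that retains haematopoietic stem cells, had an RPKM of 11.5 in cluster 3 against 27.9, 136 and 43.5 in clusters 1, 4 and 7, a ratio of 2.42 (2.31 to 2.54) to cluster 1. Of 20 genes of the haematopoietic niche stroma, all with enough counts, 3 were below by more than 2-fold (Cxcl12, Angpt1 and Ptn) and 1 was above (Csf1). Angpt1, a ligand of the Tie2 receptor, had 1.23 against 3.85, 3.48 and 4.46, and Ptn, the growth factor pleiotrophin, had 15.3 against 47.0, 46.0 and 57.5. By any amount 9 of the 20 were below and 5 above, beside 28.4% and 30.4% of all genes tested, and the median difference was -0.53. Kitl, stem cell factor, had 2.67 against 4.47, 4.64 and 3.34, and Lepr, the leptin receptor of perivascular stroma, had 4.48 against 2.92, 10.7 and 11.1, both named after their values were seen. Cluster 4 was the highest of the 4 libraries in Cxcl12 and Kitl, and cluster 7 in Lepr.

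Of 16 adipocyte-lineage genes, 11 had enough counts, 3 were below by more than 2-fold and 1 was above. Lpl, lipoprotein lipase, had an RPKM of 1.77 in cluster 3 against 12.3, 30.7 and 19.2 in clusters 1, 4 and 7. Apoe, an apolipoprotein, had 28.0 against 77.0, 504 and 180, and the transcription factor Cebpd had 40.0 against 112, 193 and 128. The member above was Cfd (adipsin), a complement protease of fat cells, with 30.8 against 0.710, 1.46 and 2.96. Cfd was therefore opposite in direction to the other called members of its list. The abundant Cebpb had 327 against 380, 633 and 534.

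Genes of Sca-1-positive fibroblast progenitors lay on both sides. Of 17 genes, all with enough counts, 4 were above by more than 2-fold and 0 below, and by any amount 7 were above and 6 below. Their summed RPKM was 14114 in cluster 3 against 14653, 17586 and 16390. Dcn was the most abundant member in clusters 3 and 7, and Gsn in clusters 1 and 4. Of the 4 genes above, Ly6c1 encodes Ly-6C, one of the antigens used for sorting, and its level is no finding. Cd55, which protects cells from complement, had an RPKM of 110 in cluster 3 against 24.5, 6.32 and 15.1 in clusters 1, 4 and 7. Dpp4, a dipeptidyl peptidase of fibroblast progenitors, had 20.6 against 6.42, 1.05 and 4.39, and Sema3c, a guidance protein, had 47.7 against 23.0, 9.37 and 17.0. With total count scaling Sema3c and Ly6c1 were 1.73-fold and 1.94-fold above the nearest library, so that 2 of the 4 calls ended, and Sema3c was also under 2-fold with DESeq2 size factors (1.99) and TMM factors of the 4 libraries (1.95). The most abundant members were close in the 4 libraries or lower in cluster 3: Dcn (decorin) had 5763 against 3790, 5594 and 5768, Col3a1 had 2356 against 2753, 2543 and 2856, and Gsn (gelsolin) had 3082 against 5636, 7272 and 5310.

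The genes of the antigens used for sorting were read as a description, since the sort could set their levels. Icam1 (CD54) had an RPKM of 11.2 in cluster 3 against 61.7, 231 and 134 in clusters 1, 4 and 7. Entpd1 (CD39) had 2.23 against 7.13, 7.17 and 12.5, and Ly6c1 had 404 against 176, 119 and 48.2. Cluster 3 was thus the lowest of the 4 libraries in Icam1 and Entpd1 and the highest in Ly6c1, whereas Cd24a (CD24) had 49.1 against 46.4, 51.8 and 64.9 and lay within the range. Ly6c2, a second gene of Ly-6C, had 36.3 against 34.3, 68.0 and 104 and also lay within the range. Ly6a (Sca-1) had 917 against 492, 421 and 203. Pdgfra, a marker of the stromal fraction, had 17.8 against 23.4, 19.3 and 23.7, while Pecam1 (CD31) and Ptprc (CD45), both excluded by the gates, had 2.07 and 1.66 in cluster 3. Il1r2, the interleukin 1 decoy receptor, was below by more than 2-fold, with 21.6 against 45.6, 74.9 and 159.

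Secreted factors differed in both directions. Of 15 inflammatory and growth cytokines, all with enough counts, 4 were above by more than 2-fold and 2 below. Csf2 (ENSMUSG00000018916, chr11:54247271-54249667), which directs granulocytes and macrophages, had an RPKM of 39.5 in cluster 3 against 2.76, 2.55 and 1.25 in clusters 1, 4 and 7, a ratio of 14.3 (11.1 to 18.8). Csf1, the macrophage factor M-CSF, had 73.6 against 29.9, 34.4 and 22.5. The monocyte chemokines Ccl2 and Ccl7 had 1244 against 332, 232 and 175, and 1075 against 521, 437 and 245. The call of Ccl7 ended with total count scaling (1.75-fold) and with TMM factors of the 4 libraries (1.98-fold). Csf3, the granulocyte factor, had 5.24 against 2.12, 3.93 and 3.90 and was above by less than 2-fold. The chemokine Ccl5 had 2.50 against 2.59, 4.60 and 3.80. It was below all 3, but cluster 1 was only 1.04-fold higher (0.731 to 1.47), a difference within counting error. By any amount 7 of the 15 were above and 6 below. The members below were Il1b, with 20.0 against 52.6, 76.0 and 168, and Ccl19, a lymphocyte chemokine, with 0.335 against 3.10, 11.6 and 4.08. Ccl2, Ccl7 and the eosinophil chemokine Ccl11 lie in a row on chromosome 11, with 8259 and 10298 bases between them, and Ccl11 was below (5.81 against 75.6, 46.9 and 49.0).

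Of 16 Wnt ligands and antagonists, 15 had enough counts, 4 were above by more than 2-fold and 3 below. The ligands above were Wnt2, with an RPKM of 22.7 against 6.62, 2.42 and 1.67, and Wnt10b, which favours bone formation, with 3.30 against 0.871, 0.424 and 0.729. The ligand Wnt5a was below, with 0.757 against 3.38, 3.47 and 4.21. Among the secreted antagonists, Sfrp4 (1288 against 328, 333 and 313) and Dkk1 (4.15 against 0.0142, 0.544 and 0.178) were above, whereas Sfrp1 (1.43 against 8.55, 16.7 and 7.99) and Sfrp2 (14.7 against 104, 292 and 161) were below. Ligands and antagonists were thus found on both sides. Sfrp4 was the most abundant member of the list in cluster 3, and its ratio to the nearest library was 3.87 (3.81 to 3.94).

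Of 19 BMP and TGF-beta ligands, antagonists and targets, all with enough counts, 2 were above by more than 2-fold and 3 below. Bmp3, which opposes osteogenic BMPs, had an RPKM of 5.94 in cluster 3 against 0.214, 0.937 and 0.931 in clusters 1, 4 and 7, and the ligand Bmp8a had 7.13 against 0.889, 2.21 and 1.36. The members below were the ligands Bmp5 (2.47 against 8.80, 6.55 and 7.54) and Tgfb3 (24.3 against 52.1, 85.9 and 73.3), and follistatin, Fst, an activin antagonist (15.1 against 51.9, 95.2 and 42.9). Id3 and Id2, targets of BMP signalling, had 343 against 484, 721 and 510, and 213 against 136, 236 and 185.

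Of 20 collagen genes, all with enough counts, 5 were above by more than 2-fold and 3 below, and 3 were above with total count scaling, without the type I chains. In addition to Col1a1 and Col1a2, the minor fibrillar collagens Col24a1 (6.64 against 1.13, 1.72 and 1.31) and Col11a2 (183 against 15.4, 77.8 and 14.8) and the junctional collagen Col22a1 (47.1 against 7.47, 3.22 and 3.70) were above in RPKM. The members below were Col4a1, of basement membranes (36.9 against 123, 96.0 and 81.9), and Col12a1 and Col16a1, which associate with fibrils (6.54 against 15.0, 48.8 and 54.7, and 20.5 against 76.1, 115 and 128). The median of the collagen list was -0.18, so the type I chains did not stand for collagens in general.

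Most cartilage and tendon genes listed were lower in cluster 3. Of 14 genes, all with enough counts, 8 were below all 3 libraries by any amount and 2 above, with a median difference of -0.61, and 3 were below and 1 above by more than 2-fold. Prg4 (lubricin), the lubricant of joint surfaces, was above, with an RPKM of 2444 against 433, 1055 and 287. The members below were Matn3, a cartilage matrilin (1.54 against 8.31, 87.0 and 19.0), Col10a1, of hypertrophic cartilage (4.26 against 9.65, 38.1 and 13.0), and Tnmd, of tendon (51.6 against 191, 202 and 162). Sox9, the master factor of cartilage, had 48.6 against 45.7, 94.8 and 41.2 and lay within the range.

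**Figure D3:**
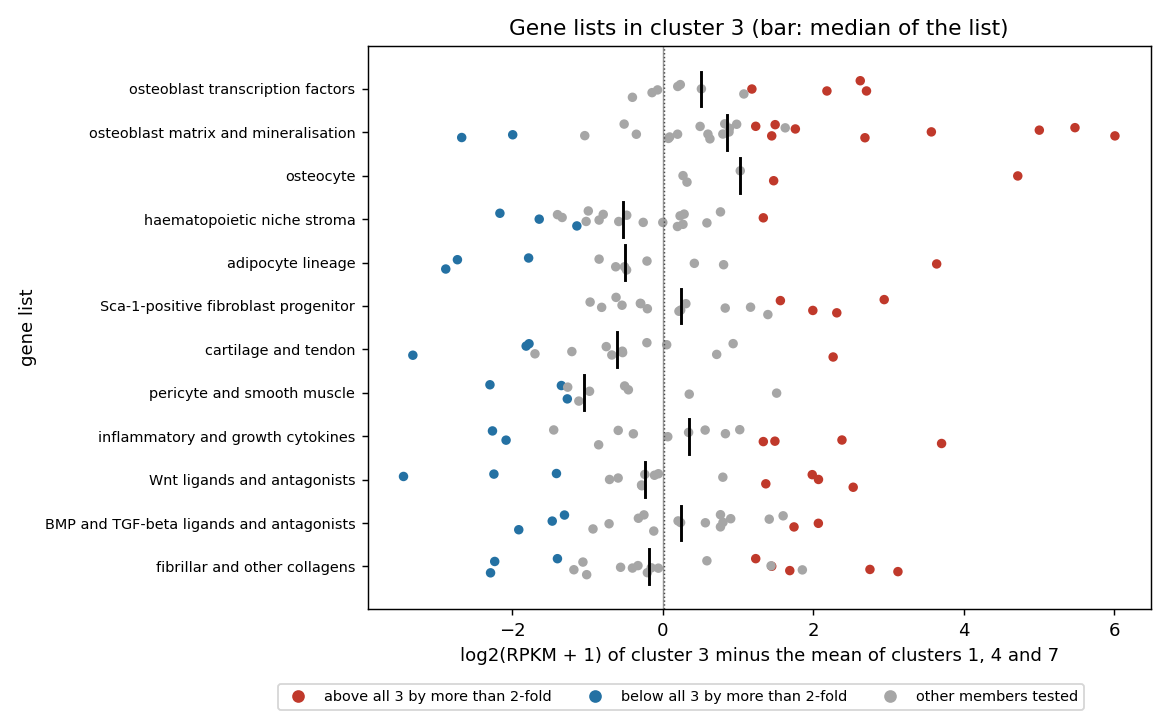
Difference in log2(RPKM + 1) between cluster 3 and the mean of clusters 1, 4 and 7 (x axis) for the tested members of 12 gene lists, with the median of each list (black bar) and of all genes tested (dotted line, 0.02). Members above all 3 libraries by more than 2-fold are red and those below are blue. The osteoblast factors, bone matrix genes and osteocyte genes shown have medians of 0.51, 0.85 and 1.03, and of 0.37, 0.85 and 0.32 when members under the count minimum are included, while pericyte and smooth muscle genes have a median of -1.04.

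Clusters 2, 5 and 6, which entered the selection of genes only through the TMM factors, were then examined for the same genes. With TMM factors of the 4 compared libraries alone, 201 genes were above and 225 below. The libraries of clusters 5 and 2 stood apart, in that Lars2, mmu-mir-689-2 and a locus matched to Rn18s-rs5 by position held 34.8% and 10.4% of their counts, against 1.41% in cluster 6, 1.58% in cluster 3 and 0.274% to 1.91% in clusters 1, 4 and 7, and the part of this in the values of these clusters was not tested. The differences of clusters 2, 5 and 6 are taken to the same libraries of clusters 1, 4 and 7, so that they share these reference values and are given side by side only. For the 215 genes above, the median difference to the mean of clusters 1, 4 and 7 was 1.74 in cluster 3, by which they were selected, and 1.28, 0.46 and 0.22 in clusters 6, 5 and 2, beside 0.005, -0.21 and -0.09 over all genes tested. The RPKM of Bglap reached 13209 in cluster 6, with 6327 in cluster 5 and 2966 in cluster 2, and that of Dmp1 was 497, 47.4 and 33.5. Osteocalcin transcripts were therefore not confined to cluster 3 among the 7 sorted libraries. Of the 215 genes, 93 were higher in cluster 6 than in cluster 3, 22 in cluster 2 and 10 in cluster 5, where over all genes tested the shares were 49.1%, 44.6% and 35.0%. Since the genes were selected as high in cluster 3, fewer of them were bound to be higher elsewhere. Alpl and Ibsp, which did not set cluster 3 apart, had 484 and 3822 in cluster 6.

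Other genes above were low in clusters 2, 5 and 6 as well, and the 10 with the largest difference among those not more than 2-fold above clusters 1, 4 and 7 in any of these were examined. They were led by Csf2, which had an RPKM of 1.89, 0.967 and 1.98 in clusters 2, 5 and 6, and by Cfd, which had 2.71, 2.62 and 0.246. Next were Htra4, a secreted serine protease, with 459 in cluster 3 and 63.9, 28.4 and 45.5 in clusters 1, 4 and 7, and, among the rest, the sialidase Neu2, the serpin Serpinb7, the chemokine scavenger Ackr2, the receptor Gpr1, Cd55 and Cyp21a1. In Htra4, clusters 2, 5 and 6 had 12.1, 22.9 and 28.2. Bglap, Bglap2, Ifitm5 and Dmp1 were higher in clusters 2, 5 and 6 too than in clusters 1, 4 and 7. The highest of these levels was in cluster 6 (Ifitm5 had 38.0, 62.6 and 201). Csf2, Cfd, Htra4 and Cd55 were chosen as not more than 2-fold above in clusters 2, 5 and 6. Their peak in cluster 3 among the 7 sorted libraries follows from this choice. In the library of input cells, scaled by the total count alone, Htra4 and Cd55 had 88.7 and 35.6, and Csf2 and Cfd had 1.18 and 0.806.

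For the 202 genes below, the median difference to the mean of clusters 1, 4 and 7 was -1.82 in cluster 3, and -1.45, -1.28 and -0.75 in clusters 6, 2 and 5, beside -0.005, -0.11 and -0.23 over all genes tested. Inmt had an RPKM of 0.260, 2.74 and 10.2 in clusters 6, 2 and 5, and Sfrp2 had 1.69, 43.3 and 127, of which the last was above the level in cluster 1. Of the 202 genes, 84 were lower in cluster 6 than in cluster 3, 48 in cluster 2 and 13 in cluster 5, where over all genes tested the shares were 49.4%, 53.9% and 63.7%. Among the genes below that were not so low in these 3 libraries were Gdf10, the chemokine Cxcl14, Matn3 and Col16a1, and Cxcl14 had 9.80 in cluster 3 against 47.0, 99.9 and 41.7 in clusters 2, 5 and 6. Matn3 had 578 in cluster 2 and 811 in cluster 6 against 1.54 in cluster 3, and the cartilage collagens Col9a1 and Col9a3 had 2.62 and 5.96 in cluster 3 against 759 and 1531 in cluster 6. Cluster 3 and cluster 6 were therefore close in Bglap and far apart in these cartilage genes.

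**Figure D4:**
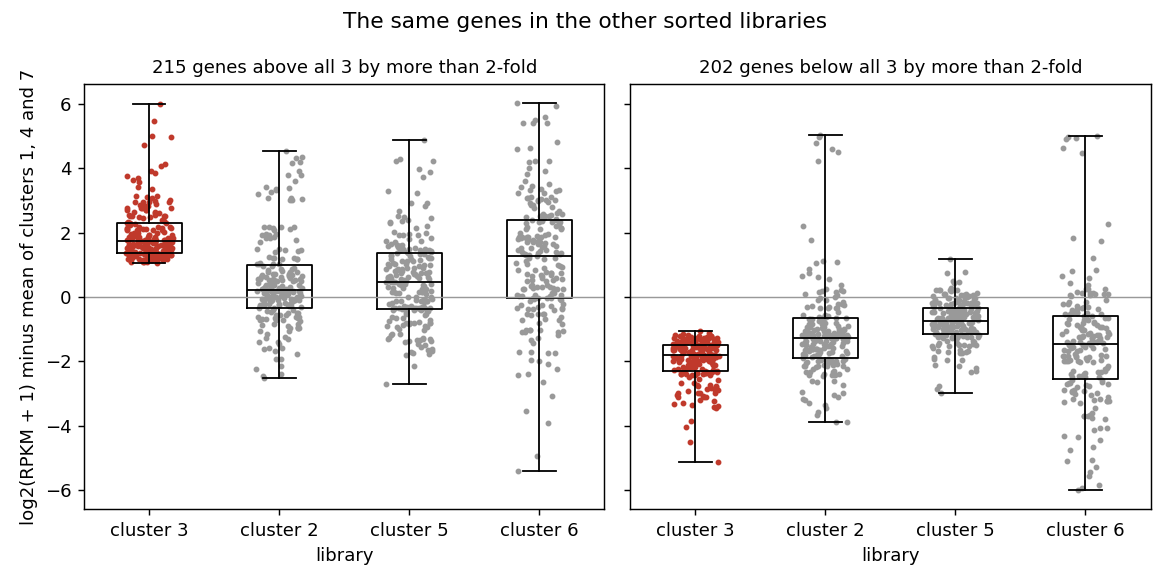
Difference in log2(RPKM + 1) to the mean of clusters 1, 4 and 7 (y axis) for the 215 genes above (left) and the 202 genes below (right) in cluster 3, by which they were selected, and in clusters 2, 5 and 6. Points are genes, boxes show the quartiles and the median, and whiskers reach the extremes. In both directions cluster 6 has the median nearest to that of cluster 3, 1.28 beside 1.74 for the genes above and -1.45 beside -1.82 for the genes below.

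Markers of other cell types were measured in the same libraries. In bulk RNA, fewer cells of a type and less RNA per cell cannot be told apart. Neutrophil genes, of which S100a9 was the most abundant, summed to an RPKM of 11176 in cluster 3 against 12717, 17984 and 27845 in clusters 1, 4 and 7, although CD45-positive cells were excluded. Macrophage genes summed to 597 against 817, 2153 and 3956, with Lyz2 the most abundant, and B-lineage genes to 35.8 against 62.1, 61.9 and 106. Of the 9 B-lineage genes with enough counts, all were below the 3 libraries by any amount, beside 28.4% of all genes tested, and 1, Igll1, by more than 2-fold. In the list of mast cell, basophil and innate lymphoid genes Mcpt8 and Prss34 were below by more than 2-fold, and Il1rl1, the receptor of IL-33, was above, with 15.2 against 3.84, 2.63 and 5.34. This list summed to 52.4 in cluster 3 against 109.6, 110.0 and 202.5. The T and NK cell genes summed to 25.1 against 25.5, 26.9 and 61.3, and Nkg7, the most abundant of them, lay within the range. Of the 10 neutrophil and 9 macrophage genes with enough counts, 5 and 4 were below all 3 libraries by any amount and 0 above. The remaining 5 of each list lay within the range, where cluster 3 was above cluster 1 or cluster 4, as in Elane (135 against 78.6, 184 and 429) and Csf1r (2.45 against 2.27, 4.29 and 13.5). The summed levels of neutrophil, macrophage and B-lineage genes, the first carried mainly by S100a8 and S100a9 and the second by Lyz2, were thus lowest in cluster 3, as were Il1b and Il1r2, and their part in the genes below was not tested. Megakaryocyte and platelet genes went the other way, with a sum of 83.0 against 49.0, 16.5 and 21.5, and Ppbp was above by 2.01-fold, which ended as a call with total count scaling (1.75-fold) and with the other scalings (1.95-fold and 1.98-fold). Erythroid genes summed to 4365 against 6855, 1188 and 3342.

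Most of the pericyte and smooth muscle genes listed were lower in cluster 3. Of 10 genes, all with enough counts, 3 were below by more than 2-fold and 7 by any amount, with a median of -1.04. Rgs5 (16.3 against 11.9, 2.46 and 3.95) and Cspg4 (13.3 against 9.27, 12.7 and 9.03), both pericyte markers, were above all 3 by less than 2-fold. Acta2, smooth muscle actin, had an RPKM of 10.1 in cluster 3 against 51.5, 38.9 and 76.0 in clusters 1, 4 and 7, Tagln (transgelin) had 1.21 against 4.72, 3.46 and 4.88, and Kcnj8, a potassium channel of pericytes, had 0.542 against 2.75, 3.39 and 2.66. Of the neutrophil and macrophage genes 0 were called by more than 2-fold, and the same held for 4 osteoclast, 6 plasma cell, 2 T and NK cell, 6 plasmacytoid dendritic and 5 erythroid genes. With total count scaling Retnlg (neutrophil), Cd14 (macrophage), Sdc1 (plasma cell) and the immediate early genes Nr4a1 and Zfp36 were called below, at up to 2.30-fold. Of 9 endothelial genes with enough counts, 0 were called, and their sum was 16.4 against 18.9, 10.2 and 14.7. Cell cycle and immediate early genes also held 0 calls among 12 and 16 members. Of the immediate early genes, 9 were nevertheless below all 3 libraries by any amount and 1 above, with a median difference of -0.39, beside 28.4% below over all genes tested, and Fos, the most abundant of the latter, had 1350 against 2162, 2169 and 2338.

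Skeletal muscle genes were higher in cluster 3, in a list drawn up after values had been seen. Of 12 genes, 10 had enough counts, and 7 were above by more than 2-fold. Acta1, the actin of skeletal muscle, had an RPKM of 29.3 against 3.21, 0.977 and 1.78, and Pvalb (parvalbumin) had 11.1 against 0.795, 0.0288 and 0.415. The list summed to 87.5 in cluster 3 against 12.5, 4.65 and 6.92, and to 194, 66.4 and 111 in clusters 2, 5 and 6. The master factor Myod1 had 0.371 in cluster 3 and did not reach the count minimum. Of the 4 libraries, cluster 3 was thus the highest in the summed muscle genes as in osteocalcin. Without the muscle list 208 genes were above, and the part of muscle RNA in the other genes above was not tested.

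**Figure D5:**
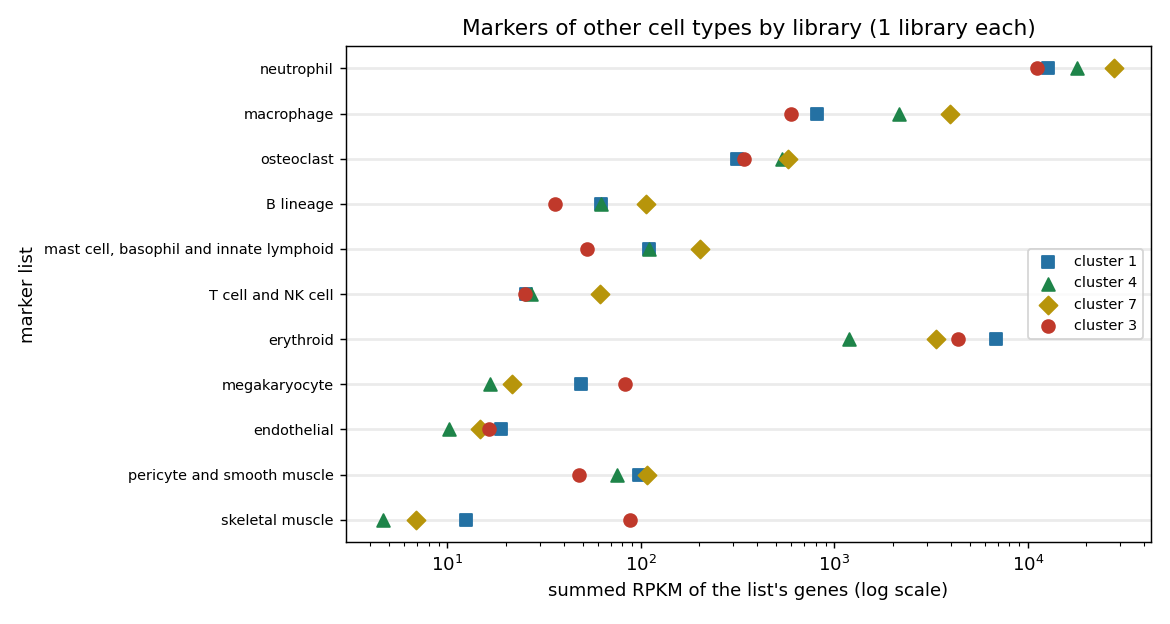
Summed RPKM, on a log scale (x axis), of the genes of 11 marker lists in cluster 3 (red circles) and clusters 1, 4 and 7 (blue squares, green triangles, yellow diamonds), with 1 library each. Cluster 3 lies lowest for neutrophil, macrophage, B-lineage and pericyte genes and highest for megakaryocyte and skeletal muscle genes.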

How the data were processed

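RNA-seq of 7 sorted stromal populations and of input cells was used, with 1 library each. For each Ensembl gene the authors deposited raw counts, exon positions and length. Per the labels and the Methods, Partek 2.2 and TopHat2 2.0.8 served for alignment to mm9, whereas the deposited positions are those of GRCm38, since 96.2% of 23289 symbols started within 10000 bases of RefSeq GRCm38.p6. The counting tool, strandedness and treatment of shared reads were not given in the sources used here. The label protocol describes whole marrow and not the sort.

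RPKM was computed from the counts, the exon length and the total count on genes times the TMM factor of the 7 sorted libraries, with a pseudocount of 1. The TMM shift of the log2 values was -0.02 in cluster 3 and -0.26, -0.03 and -0.16 in clusters 1, 4 and 7. With 1 library per population, edgeR and DESeq2 gave scaling factors only and no test was made. The calculation was tested on simulated counts with known changes. Symbols were found for 37789 of 49315 genes. Of 26 lists, 1 was incompletely matched (5 of 8 erythroid genes), and 1 further list, skeletal muscle, was added.

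The genes compared and the lists were chosen with earlier results of these data known. Genes named are the 10 with the largest difference to the nearest library in each direction, the sort markers, Bglap, Bglap2, Cxcl12 and, of each list, the called members and the 4 most abundant. Any other gene, such as Runx2, Alpl, Tnfrsf11b, Csf3, Sox9 or Htra4, was named after its values were seen. Some genes that these rules would name are not reported here. Alternatives comprised scaling, pseudocount, count minimum, fold, equal depth and omission of libraries or loci. Scaling used edgeR 4.0.16 and DESeq2 1.42.0 in R 4.3.3. All else ran in Python 3.11.15 with pandas 2.3.3, numpy 2.4.6 and scipy 1.17.1, and plots with matplotlib 3.10.9.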

Additional observations from a re-analysis of the deposited data

How the results depend on the processing

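No paired analysis was possible because the libraries carried no replicate numbers and each group held 1 sample. With a pseudocount of 0.1 in place of 1, 351 genes were above and 405 below. A 4-fold limit gave 43 and 29 genes and a 1.5-fold limit 488 and 502, which follows from the limit itself. Without the library of cluster 1, 443 genes were below, since fewer libraries had to be passed. Of 44 counts recomputed under the alternatives, the other 37 stayed within 1.5 times, with 181 to 316 genes above and 190 to 276 below among the counts over all genes. The differences of the 21 genes named for their size or as markers kept their direction and stayed over 2-fold under total count and DESeq2 scaling. Depth limits the genes of low RPKM, and with 1 library each no spread between sorts or mice was available.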

Other observations

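Some further genes were chosen after their values were seen and are given singly, since no list of their kind was counted. Sbsn (suprabasin), an epidermal protein, had an RPKM of 21.7 against 5.49, 4.36 and 5.06 in clusters 1, 4 and 7, and Pkp1, a desmosomal plakophilin, had 2.25 against 0.268, 0.167 and 0.376. The oxidase Duox1 (7.33 against 2.31, 0.804 and 1.45) and its maturation factor Duoxa1 (8.33 against 2.41, 1.35 and 2.95), which lie side by side on chromosome 2, were above together.

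Single enzymes of nucleotide sugar metabolism were also above. Ugp2, which makes UDP-glucose, had an RPKM of 137 against 51.7, 39.8 and 49.9, and Ugdh, which oxidises it to UDP-glucuronic acid, had 326 against 118, 133 and 84.7. Gnpnat1 (38.3 against 13.5, 9.05 and 11.3) belongs to the same metabolism. Among the genes below were also Igf2 (0.965 against 5.04, 19.7 and 7.85), H19 (1.84 against 7.21, 42.6 and 8.05), Mest (3.04 against 12.8, 27.7 and 12.3) and Cdkn1c (9.94 against 29.8, 94.8 and 47.2). Of the called genes, 29 pairs of neighbours within 100000 bases had the same direction and 7 had opposite directions. Tnnt3 (above) next to H19 (below) was one of the latter. The former include members of the same gene family, such as Bglap2 and Bglap or Abca8b and Abca8a. Pairs were not counted over all genes tested, so these counts are no result about neighbouring genes.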
